A study of Mus musculus with 7 samples.

Results

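The 8 genes described here encode chemokine receptors, the seven-helix membrane proteins through which leukocytes sense chemokines, measured in neutrophils of the acetaminophen-injured mouse liver. They are Cxcr1, Cxcr2, Cxcr4, Ccr1, Ccr2, Ccr7, Ccrl2 and Cx3cr1, and were chosen by name, with Ccr2 as the target of the antibody MC-21 and Cxcr2 and Cxcr4 as the pair that governs neutrophil release and homing. All 8 were among the 16047 genes of the deposited RNA-seq table. Neutrophils were sorted from the livers of C57BL/6 mice, males of 8 to 12 weeks by the methods of the study, 24 h into AILI, the liver injury that acetaminophen causes. Every mouse was fasted for 12 h and received 300 mg/kg of acetaminophen. Mice of the MC-21 group (n = 3 livers, replicates 2, 3 and 4) were injected with 400 µL of medium conditioned with MC-21, a monoclonal antibody to mouse CCR2 at 29 µg/mL, from 12 h before acetaminophen and every 24 h, which left them without infiltrating Ly6Chi monocytes, and those of the PBS group (n = 4 livers, replicates 5 to 8) were injected with PBS. From each liver 50000 cells of the gate CD11b+Ly6CloCX3CR1-GFP-Ly6G+ were collected. No uninjured liver, other time or other cell type entered these measurements, and the antibody was given to the whole animal.

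Chemokine receptors couple through inhibitory G proteins to phosphoinositide 3-kinase and Rac, which steer the crawling cell. Mature neutrophils leave the bone marrow when signals through CXCR2, the receptor for the CXC chemokines with an ELR motif, outweigh retention through CXCR4, the receptor for CXCL12, and CXCR4 rises again as circulating neutrophils age. CCR2 brings Ly6Chi monocytes out of the marrow, CX3CR1 marks monocytes and macrophages, CCR7 guides cells towards lymphatics, and CCRL2 is an atypical receptor that presents chemerin and does not signal through G proteins in the usual way.

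The receptors differ in a stretch that the G protein contacts, the Asp-Arg-Tyr (DRY) motif at the inner end of the third helix. Its codons are shown for 7 members because they separate signalling receptors from Ccrl2, the member with the most RNA. Each line gives 30 coding bases of the mm9 genome, 5′ to 3′ on the strand of the gene, with the 3 codons at the DRY position in capitals.
Cxcr1: tgcatcagtgtgGACCGATACctggccatc
Cxcr2: tgcatcagcatgGACCGCTACctggccatt
Cxcr4: ttcatcagcctgGACCGGTACctcgctatt
Ccr1: ctgttgacgattGACAGATACctggccatt
Ccr7: tgcatcagcattGACCGCTACgtagccatc
Cx3cr1: gtcatcagcatcGACCGGTACcttgccatc
Ccrl2: ctcctccttgtgCAAGGATACagggtgttt
The codons for Asp-Arg-Tyr were found in 7 of the 8 genes, and the line of Ccrl2 is the stretch that aligned with this part of Ccr1. Ccrl2 shared 24.0% to 35.4% of its aligned residues with the other 7 members, the closest pair was Cxcr1 with Cxcr2 (61.9%), and Ccr1 and Ccr2 shared 54.9%. All of these stretches lie in the last exon of their transcripts in the GENCODE annotation, exon 3 of Ccr7 and exon 2 of each other member.

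The stretches of Cxcr1 (chr1:74239004-74239033, minus strand), Cxcr2 (chr1:74205334-74205363, plus strand) and Cxcr4 (chr1:130486080-130486109, minus strand) lie on the same chromosome. Those of Ccrl2 (chr9:110958522-110958551, minus strand), Cx3cr1 (chr9:119961057-119961086, minus strand) and Ccr1 (chr9:123878920-123878949, minus strand) lie on chromosome 9, and that of Ccr7 lies apart (chr11:99006935-99006964, minus strand). None of the 8 genes overlaps another annotated gene. Of the 50-base words in their transcripts, 1.91% of those of Cxcr2 were also found in other genes, while Cxcr1, Cxcr4, Ccr1, Ccr7, Ccrl2 and Cx3cr1 shared none.

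Values are RPKM, the reads of a gene divided by the length of its transcript and the size of the library. The steps between low values gave a depth of 2660000 to 3960000 reads in PBS libraries and of 1590000 to 3580000 in MC-21 libraries, the shallowest being MC-21 replicate 3. The most abundant marker gene was the neutrophil gene S100a9, at 12270 RPKM or more in every library. Not all neutrophil markers stood high. Csf3r, the G-CSF receptor, was at 269.6 to 328, below the endothelial gene Clec4g (474 to 1539), and Ly6g, the gene of the sorting antigen, was at 16.3 to 69.0. Transcripts known as markers of other cells were present too: the summed level of 14 monocyte and macrophage markers was 593 to 714 RPKM in PBS and 308 to 387 in MC-21 libraries. That of 6 endothelial genes was 1027 to 2320 and 1176 to 2101, and that of 6 hepatocyte genes 232 to 523 and 229 to 366. Bulk samples do not show which cell type made a transcript. In them, fewer cells of a type and less RNA per cell cannot be told apart. The methods of the study give the cells as sorted per liver, and the labels number the libraries. Each library was therefore taken as a separate liver, and the tests measure the spread between livers.

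In PBS neutrophils the receptors ranged from rank 121 to rank 8227 among the 16047 genes by mean RPKM, and 3 of them stood far above the others. Ccrl2 stood at 618 ± 162 RPKM (SD, n = 4). It was followed by Cxcr4 at 186 ± 25.4 (rank 418) and Cxcr2 at 183 ± 33.9 (rank 423), which differed by less than their spread: Cxcr4 was the higher of the pair in 2 of 4 PBS libraries. Ccr1, a receptor for CCL3, CCL5 and related CC chemokines, stood at 22.2 ± 13.9, and Cxcr1, the second receptor for ELR chemokines, at 15.1 ± 5.70. Their ranges overlapped, with Ccr1 higher in 3 of 4 libraries.

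Ccr7, Ccr2 and Cx3cr1, receptors known mainly from dendritic cells, T cells and monocytes, closed the order at 4.59 ± 2.42, 2.42 ± 0.588 and 2.10 ± 1.20 RPKM. The ranges of Ccr7 and Ccr2 overlapped, although Ccr7 was higher in 4 of 4 PBS libraries, and so did those of Ccr2 and Cx3cr1. Because the libraries hold 3′ reads, a level per kilobase understates a long transcript. Taken as RPM, reads scaled to library size and not to length, Cxcr2 (406 or 554 RPM, with its transcript of 2220 or 3035 bases) came above Cxcr4 (336 RPM, with its transcript of 1805 bases). The other 6 kept their rank with the transcripts used for reads here, but with its shortest transcript, of 2265 bases, Ccr2 (5.47 RPM) came below Cx3cr1 (7.84 RPM).

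**Figure D1:**
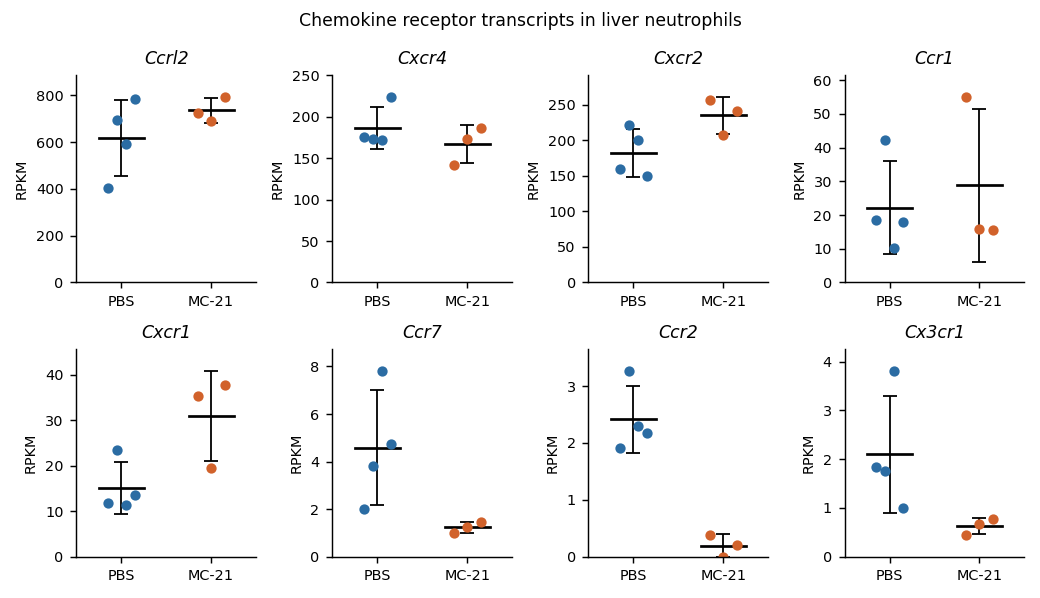
RPKM (vertical axis, from 0, a scale of its own for each gene) of the 8 receptors in PBS neutrophils (blue points, n = 4) and MC-21 neutrophils (orange points, n = 3), in order of their PBS level, with the mean (line) and SD (bar). The groups do not overlap for Ccr7, Ccr2 and Cx3cr1, while Ccrl2, Cxcr4, Cxcr2, Ccr1 and Cxcr1 overlap.

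The comparison of MC-21 with PBS neutrophils asks how these transcripts stand when Ly6Chi monocytes are missing. Of the 8 receptors, 1 had an adjusted p under 0.05 (limma, Benjamini-Hochberg over the 9594 genes whose mean reached 1 RPKM): Ccr2, which was lower. Over all genes tested 0.625% passed that threshold, 0.427% lower and 0.198% higher in MC-21. The fold changes of the 8 had a median of 0.06 on the log2 scale against -0.145 over all genes, with 4 positive and 4 negative. Log2 fold changes below are MC-21 minus PBS on log2(RPKM + 1), a scale that understates the change of genes with low values.

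Among the receptors that drive neutrophils to sites of injury, Cxcr2 was measured at 159.6, 221, 200.2 and 149.5 RPKM in PBS replicates 5 to 8 and at 257, 207 and 242 in MC-21 replicates 2 to 4. Replicates 2 and 4 of MC-21 lay above every PBS library and replicate 3 lay inside their range. The log2 fold change was 0.38 ± 0.168 (SE), with a 95% interval of -0.0031 to 0.75 and a limma adjusted p of 0.343.

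Cxcr1, which shares its ELR ligands with Cxcr2, was measured at 11.9, 23.5, 11.4 and 13.5 RPKM in PBS and at 35.4, 19.6 and 37.8 in MC-21 libraries. The same MC-21 replicates, 2 and 4, lay above all PBS libraries, and PBS replicate 6 exceeded MC-21 replicate 3. Its log2 fold change of 0.99 ± 0.296 (2.05-fold by the means) had an interval of 0.33 to 1.66, an unadjusted limma p of 0.00797 and an adjusted p of 0.188. Over all genes, 3.59% were higher with an unadjusted p under 0.05. In reads these values came to 34 to 88 per PBS library and 35 to 142 per MC-21 library.

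Cxcr4, which holds neutrophils in the marrow, was measured at 175, 173, 172 and 224 RPKM in PBS and at 141, 173 and 187 in MC-21 libraries. The groups overlapped, with PBS replicate 8 the highest of the 7 libraries and MC-21 replicate 2 the lowest. The log2 fold change was -0.16 ± 0.154 (95% interval -0.50 to 0.19, limma adjusted p = 0.682), and its sign turned (0.009, adjusted p = 0.994) once libraries were centred on their medians.

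Within a library the ratio of Cxcr2 to Cxcr4 does not depend on depth. It was 0.911, 1.28, 1.16 and 0.667 in PBS replicates 5 to 8 and 1.82, 1.19 and 1.29 in MC-21 replicates 2 to 4. Per kilobase Cxcr2 was the higher transcript in 3 of 3 MC-21 libraries and in 2 of 4 PBS libraries, and the ranges of the ratio overlapped. In RPM it was higher in 3 of 3 MC-21 libraries and, with its transcripts of 2220 and 3035 bases against the one of 1805 bases of Cxcr4, in 3 and 4 of the 4 PBS libraries, so which of the pair is higher depends on the unit. The mean log2 ratio was -0.04 ± 0.417 (SD, n = 4) in PBS and 0.49 ± 0.322 (n = 3) in MC-21, a difference of 0.53 that ran from 0.35 to 0.66 with each library left out.

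**Figure D2:**
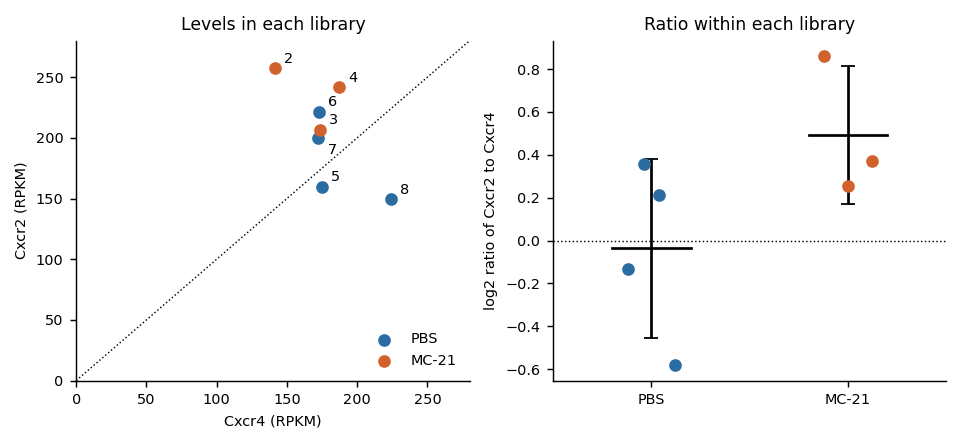
Left, RPKM of Cxcr2 (vertical axis) against Cxcr4 (horizontal axis) in each library, numbered by replicate, with a dotted line of equal levels. Right, the log2 ratio of Cxcr2 to Cxcr4 in each library with the mean (line) and SD (bar), PBS in blue (n = 4) and MC-21 in orange (n = 3); the ranges of the groups overlap, and the place of the line of equality (0 on the right) rests on the division by transcript length.

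Ccrl2, the most abundant of the receptors, was measured at 405, 694, 593 and 782 RPKM in PBS and at 725, 688 and 793 in MC-21 libraries. The MC-21 values lay close together (coefficient of variation 7.25%, against 26.2% in PBS), and they overlapped the PBS range. The log2 fold change was 0.29 ± 0.209 (95% interval -0.18 to 0.76, limma adjusted p = 0.559).

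Ccr1 was the most variable receptor relative to its mean in PBS neutrophils, at 18.4, 42.2, 10.2 and 18.0 RPKM, and stood at 55.1, 15.8 and 15.6 in MC-21 libraries. The highest library of each group, PBS replicate 6 and MC-21 replicate 2, stood well above the others of its group, on 398 and 558 reads. The log2 fold change of 0.28 ± 0.513 (95% interval -0.87 to 1.43, limma adjusted p = 0.833) became -0.30 without MC-21 replicate 2 and -0.01 without PBS replicate 7.

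Ccr2, which encodes the protein that MC-21 binds, was measured at 1.92, 3.26, 2.31 and 2.18 RPKM in PBS neutrophils and at 0.390, 0 and 0.200 in MC-21 neutrophils. Every MC-21 library lay below every PBS library. In reads, with the transcript of 3598 bases that brings the values nearest to whole numbers, these were 19, 39, 22 and 31 against 5, 0 and 2. Summed over the libraries, 111 reads of 12720000 stood against 7 of 7960000, or 8.72 and 0.880 RPM. The count of 0 in MC-21 replicate 3 allows up to 0.524 RPKM (3 reads, counting error only), above the values of the other MC-21 libraries.

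Ccr2 fell by 1.51 ± 0.229 on the log2 scale (95% interval -2.03 to -0.997), with a limma adjusted p of 0.0263, and the PBS mean was 12.3 times the MC-21 mean. In the two-sided exact permutation test, over the 35 ways to assign the libraries to groups of 4 and 3, p was 0.0286, the smallest this design allows. The call was lost with a pseudocount of 0.1 (adjusted p = 0.0595), without the filter on low values (0.0688), with a test of each gene on its own variance (0.115), and on leaving out PBS replicate 7 or 8 (0.0652 and 0.0931) or MC-21 replicate 2, 3 or 4 (0.0551, 0.0771 and 0.0868). The direction held in each of these, and the gene passed the filter through its PBS values alone, since its MC-21 mean was 0.197 RPKM.

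Some markers of monocytes and macrophages were lower in MC-21, as Ccr2 was, and others were not. Of the 12 tested, 5 fell with an adjusted p under 0.05 and 0 rose, against 0.427% lower and 0.198% higher over all genes. The 5 were the Fc receptor gene Fcgr1 (10.1 ± 3.15 to 1.31 ± 0.200 RPKM, adjusted p = 0.00851), the monocyte coagulation factor gene F13a1 (3.20 ± 1.43 to 0.310 ± 0.123, 0.0378) and the 3 complement C1q genes C1qa, C1qb and C1qc (log2 fold changes of -1.30, -1.36 and -1.13). F13a1 passed the filter through its PBS values alone. Without PBS replicate 7 or 8 the count was 2, and without MC-21 replicate 2 or 4 it was 3. The most abundant marker, the lysosomal protein gene Cd68, stood at 152 ± 24.7 and 90.3 ± 2.81 RPKM (adjusted p = 0.0786). Other defining markers gave other values: Ly6c2, the gene of the monocyte antigen Ly6C, stood at 50.5 ± 10.5 and 41.6 ± 2.37 RPKM (adjusted p = 0.577), Adgre1, which encodes F4/80, at 12.9 ± 6.49 and 14.9 ± 9.73 (0.988), and Vcan and Mertk lay below 0.5 RPKM in every library. The paper counts the lower Fcgr1 and C1q genes among the changes of the neutrophils. The part of monocytes and macrophages in the Ccr2 difference was not tested.

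**Figure D3:**
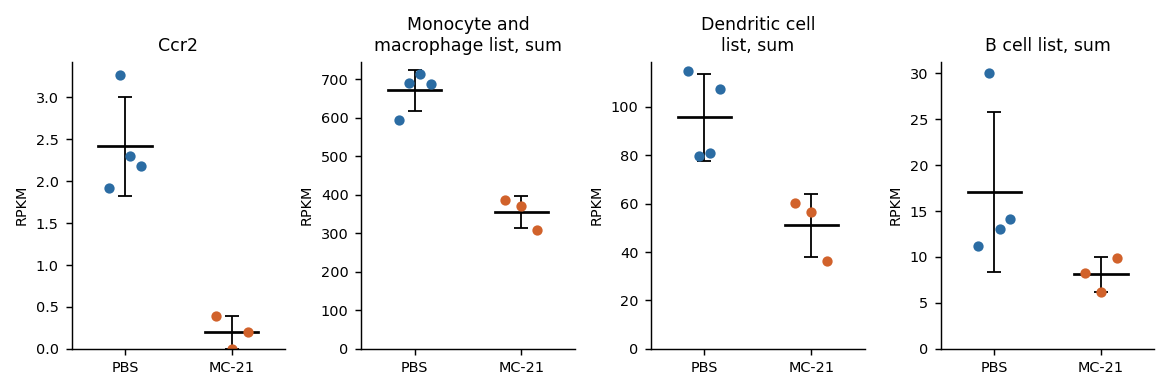
RPKM (vertical axis, from 0) of Ccr2 and the summed RPKM of the monocyte and macrophage, dendritic cell and B cell marker lists in each library, PBS in blue (n = 4) and MC-21 in orange (n = 3), with the mean (line) and SD (bar). The groups are apart in all 4 panels, with every MC-21 library below every PBS library. Most of the dendritic cell sum is Fscn1, the only gene of the 4 tested on that list without overlap between the groups. The sums of the T and NK cell, Kupffer cell, endothelial and hepatocyte lists, not drawn here, overlap between the groups.

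Ccr7, the receptor for the lymphoid chemokines CCL19 and CCL21, was measured at 2.01, 3.80, 7.81 and 4.73 RPKM in PBS and at 0.992, 1.27 and 1.46 in MC-21 neutrophils. Every MC-21 library was lower than every PBS library, on 4 to 8 reads against 11 to 41. The PBS mean was 3.70 times the MC-21 mean, and the log2 fold change of -1.22 ± 0.329 (95% interval -1.96 to -0.48) had an unadjusted limma p of 0.00452 and an adjusted p of 0.155. The exact permutation p was 0.0571.

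Cx3cr1, the receptor for membrane-bound CX3CL1, was measured at 1.83, 1.76, 3.81 and 1.01 RPKM in PBS and at 0.448, 0.670 and 0.767 in MC-21 neutrophils. These groups did not overlap either, on 15 to 38 against 4 to 8 reads, with PBS replicate 8 the nearest to the MC-21 libraries. The log2 fold change was -0.86 ± 0.296 (95% interval -1.53 to -0.20), the unadjusted limma p 0.0165, the adjusted p 0.242 and the exact permutation p 0.0571. The gate names CX3CR1-GFP-negative cells, while the labels give the strain and no Cx3cr1 allele, so whether these mice carried a GFP insertion in Cx3cr1, and how that would bear on its reads, is not given in the sources used here.

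Groups without overlap were thus found for 3 of the 8 receptors, all lower in MC-21. Over all genes tested the share was 10.2% lower and 3.1% higher, 13.3% in all. An unadjusted p under 0.05 was found for the same 3 and, higher, for Cxcr1, and over all genes for 11.2% lower and 3.59% higher, 14.7% in all. The MC-21 means of Ccr2 and Cx3cr1 lay below the filter of 1 RPKM that they passed through PBS, so their count carries no weight of its own. Marker sums of other cells that use these receptors were lower in every MC-21 library for dendritic and B cells and overlapped for T and NK cells. The lower dendritic sum rested on the gene Fscn1. The summed level of 8 dendritic cell markers was 79.7 to 115 RPKM in PBS and 36.3 to 60.3 in MC-21 libraries, most of it from Fscn1 (87.4 ± 18.1 and 42.1 ± 9.60, adjusted p = 0.0739), an actin-bundling protein that other cells also make. Clec9a, restricted to conventional dendritic cells, stood at 3.67 ± 0.569 and 4.88 ± 3.03. Of the 4 genes tested on that list, only Fscn1 was without overlap between the groups.

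Of 5 B cell markers the sum was 11.2 to 30.1 and 6.14 to 9.87 RPKM, with Cd79b at 12.0 ± 6.34 and 6.17 ± 1.74 (adjusted p = 0.316) and Ms4a1 at 0 in 5 of 7 libraries. Of 9 T and NK cell markers it was 9.47 to 16.7 and 8.15 to 22.3, led by Nkg7. None of the genes tested on these 3 lists had an adjusted p under 0.05. An unadjusted limma p under 0.05 was found for 1 of 4, 2 of 3 and 1 of 4, all lower, against 11.2% of all genes lower. The 5 Kupffer cell markers summed to 56.3 to 84.4 and 34.3 to 64.4 RPKM, led by the scavenger receptor gene Marco. Of the 3 tested, 0 had an adjusted p under 0.05 by limma. An unadjusted p under 0.05 was found for 2 (Marco and Cd5l), lower in MC-21, against 11.2% of all genes lower. The median log2 fold change of the 3 was -0.51, against -0.145 over all genes. The eosinophil gene Siglecf stood at 14.5 ± 4.00 and 11.9 ± 3.47. The part of these cells in the values of Ccr7 and Cx3cr1 was not tested.

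**Figure D4:**
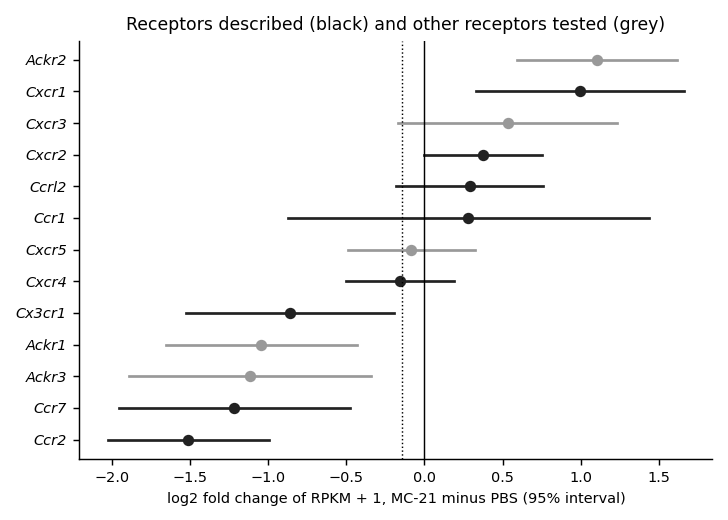
Log2 fold change of RPKM + 1, MC-21 minus PBS, with its 95% interval from limma (horizontal axis), for the 8 receptors described (black) and the 5 other chemokine receptors tested (grey). The solid line marks 0 and the dotted line the median of all genes tested (-0.145); the intervals of Ccr2, Ccr7 and Cx3cr1 lie below 0 and that of Cxcr1 above it.

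Of 16 other chemokine receptors looked for, 13 were in the table and 5 were tested, of which 0 had an adjusted p under 0.05 by limma and 3 an unadjusted p under 0.05, 1 higher and 2 lower (14.7% of all genes, in either direction). These 3 were the atypical receptors, which bind chemokines without G protein signalling. Ackr2, a scavenger of inflammatory CC chemokines, was measured at 6.03 to 12.4 RPKM in PBS and 17.9 to 21.5 in MC-21 libraries, without overlap. Its log2 fold change was 1.10 ± 0.228 with an adjusted p of 0.0739, and the adjusted p ran from 0.0314 (log2 fold change 1.27, without PBS replicate 6) to 0.196 with 1 library left out, under 0.05 in 1 of these 7 fits.

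Ackr1, known from erythroid cells and venular endothelium, stood at 53.1 ± 9.39 RPKM in PBS and 26.6 ± 12.3 in MC-21 (log2 fold change -1.04, adjusted p = 0.145). Ackr3, the second receptor for CXCL12, stood at 3.22 ± 1.46 and 0.939 ± 0.756 (-1.12, adjusted p = 0.202), with an MC-21 mean under the filter of 1 RPKM, which it passed through PBS. Cxcr5, a receptor of lymphoid follicles, stood at 3.49 ± 0.368 and 3.24 ± 0.410. The median log2 fold change of the 5 was -0.08. Cxcr6, Ccr6, Ccr10 and Xcr1 were at 0 in 4 to 6 of the 7 libraries.

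Of 19 ligands of the receptors, 18 were in the table and 15 were tested, and 0 had an adjusted p under 0.05 by limma. An unadjusted p under 0.05 was found for 7, of which 5 were higher and 2 lower in MC-21, against 3.59% of all genes higher and 11.2% lower, and the median log2 fold change of the ligands was 0.18. The CXCR2 ligand Cxcl2 was the most abundant, at 7687 to 12750 RPKM in PBS and 14210 to 16230 in MC-21, with a log2 fold change of 0.58 ± 0.175 (adjusted p = 0.194). Cxcl3, another CXCR2 ligand, stood at 145 ± 49.9 and 294 ± 60.9 (log2 fold change 1.06, adjusted p = 0.144).

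The CCR1 ligands did not share a sign. Ccl3 was at 610.2 ± 179.6 and 901 ± 150.2 RPKM (log2 fold change 0.59, adjusted p = 0.285). Ccl9 was at 28.9 ± 13.3 and 9.60 ± 2.08 (-1.41, adjusted p = 0.0952), without overlap, and Ccl6 was at 681 ± 189 and 716 ± 71.9 (0.11, adjusted p = 0.843). The CXCR4 ligand Cxcl12 lay between 0.354 and 1.67 RPKM and the CX3CR1 ligand Cx3cl1 was at 0 in 5 of 7 libraries.

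Downstream of the receptors, 28 of 29 signalling genes were tested, and 0 had an adjusted p under 0.05, with a median log2 fold change of -0.04. An unadjusted limma p under 0.05 was found for 3 of the 28, all lower, a share close to the 11.2% of all genes. The largest signalling transcripts were Gnai2, the inhibitory G protein subunit that couples these receptors, at 674 ± 74.2 and 601 ± 45.5 RPKM, Gnb2, a beta subunit, at 359 ± 51.9 and 289 ± 10.1, and Rac2, the neutrophil Rac, at 316 ± 61.7 and 369 ± 109. Rgs1, which shortens G protein signals, stood at 97.5 ± 27.5 and 51.2 ± 9.76 without overlap (log2 fold change -0.89, adjusted p = 0.154). The Rac activator Dock2 (-0.59, adjusted p = 0.256) and the phosphoinositide 3-kinase subunit Pik3r6 (-0.51, adjusted p = 0.332) also lay lower in all 3 MC-21 libraries than in all 4 PBS libraries. Of the 28 genes, 6 were without overlap, all lower and Gnb2 among them, against 10.2% of all genes lower.

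Of 7 genes linked with neutrophil ageing, the process in which CXCR4 rises, 0 had an adjusted p under 0.05 and 1 an unadjusted limma p under 0.05. It was Cd47, the signal that protects cells from engulfment, at 73.1 ± 14.7 and 117 ± 32.7 RPKM (log2 fold change 0.66, adjusted p = 0.235). Over all genes, 3.59% were higher with an unadjusted limma p under 0.05. Itgam, the CD11b integrin, stood at 63.7 ± 14.8 and 80.5 ± 8.59 and Icam1, its ligand, at 60.2 ± 11.0 and 48.6 ± 2.90, with overlapping groups. Of 13 neutrophil markers 1 rose with an adjusted p under 0.05, against 0.198% of all genes. It was Cd177, a neutrophil surface glycoprotein (11.6 ± 5.06 to 37.2 ± 6.601 RPKM, limma adjusted p = 0.0415, lost without PBS replicate 5 or 8, without any MC-21 replicate, without the filter, without limma's trend and when each gene was tested on its own variance). By an unadjusted limma p under 0.05, 4 of the 13 were higher, Cd177 among them, and 1 was lower. Over all genes these shares were 3.59% and 11.2%. The median log2 fold change of the 13 was 0.45, against -0.145 over all genes.

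Across the 7 libraries, Pearson's r of log2(RPKM + 1) was positive for 14 of the 28 pairs of receptors and negative for 14, and the difference between the groups and the shared libraries enter these values. Cxcr1 and Cxcr2 gave the highest value (0.845), followed by Ccr7 with Cx3cr1 (0.827), Ccr2 with Ccr7 (0.801) and Ccr2 with Cx3cr1 (0.733). The lowest values were those of Cxcr2 with Cxcr4 (-0.701), Cxcr1 with Cx3cr1 (-0.698) and Cxcr1 with Ccr7 (-0.674).

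Of all genes tested, those most like Cxcr2 across the 7 libraries were G0s2, an inhibitor of lipolysis (r = 0.978), Srgn, the granule proteoglycan serglycin (0.975), and AB124611 (0.969). For Cxcr1 they were Cd164, a sialomucin (0.985), Deb1 (0.984) and Clint1 (0.962), and for Cxcr4 they were Mepce (0.985), Nelfb, a subunit of a transcription pausing factor (0.983), and Got2, a mitochondrial aminotransferase (0.978). Ccrl2 ran with the acute-phase genes Saa2 (0.977) and Orm1 (0.975) and with Mob3c (0.975).

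Ccr1 ran with Tmed7 (0.992), Sdf2 (0.961) and the ribosomal protein gene Rpl27 (0.957). For Ccr2 the genes were Sumf2 (0.988), Pik3cb, a catalytic subunit of phosphoinositide 3-kinase (0.980), and Slc25a39 (0.975). For Ccr7 they were Lgals3, which encodes galectin-3 (0.981), Rgs1 (0.974) and Gsap (0.970), and for Cx3cr1 they were Slpi, a protease inhibitor (0.976), Alkbh7 (0.957) and Ikbip (0.956). These are the highest of 9594 genes over 7 libraries, and they are given as a description.

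**Figure D5:**
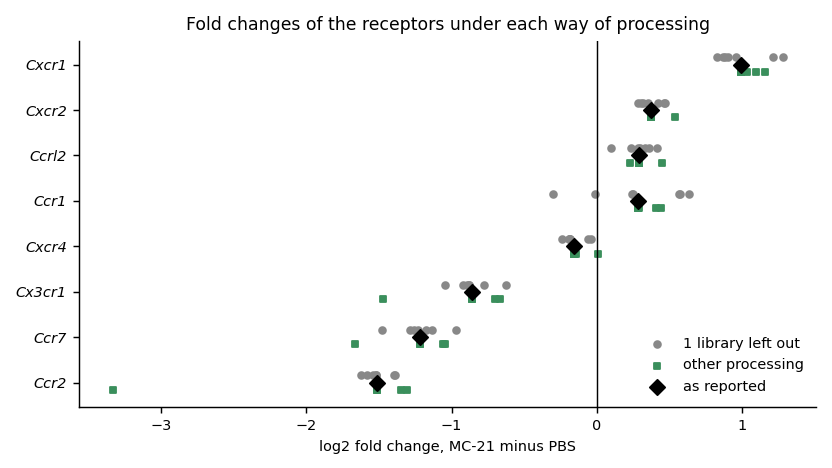
Log2 fold change, MC-21 minus PBS (horizontal axis), of each receptor as reported (black diamond), with 1 library left out (grey circles) and under the other ways of processing (green squares). Points of Cxcr1, Cxcr2, Ccrl2, Cx3cr1, Ccr7 and Ccr2 keep to one side of 0, and those of Ccr1 and Cxcr4 reach both sides; the point at -3.33 is Ccr2 with a pseudocount of 0.1.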

How the data were processed

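Per the labels and the methods of the study, 3′ RNA-seq libraries were sequenced on an Illumina NextSeq. The authors mapped reads to mm9 with HISAT 0.1.5, and used SAMtools and Partek Genomics Suite 6.6, from which the deposited RPKM values per gene and library come. The transcript annotation and the handling of molecular barcodes, multiply mapped reads and low values are not given in the sources used here. All 7 columns were matched to samples by their titles.

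The chemokine receptors, gene lists and tests were chosen with earlier results of these data known. Differences are MC-21 minus PBS on log2(RPKM + 1), as deposited, over the 9594 genes whose mean reached 1 RPKM, tested with limma 3.58.1 (eBayes with a trend, R 4.3.3) and Benjamini-Hochberg adjustment over all of them. An exact permutation test (two-sided, 35 assignments of libraries to groups) was added for single receptors. A simulation of this comparison on 9594 genes changed 200 genes by 2 on the log2 scale. It recovered 174 of them (87%), with 8 false calls. The largest change among the receptors described was smaller, at -1.51 for Ccr2 on log2(RPKM + 1). Recovery of changes smaller than 2 was not tested.

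Depth was read from the steps between low RPKM values of 982 genes with GENCODE vM1 transcript lengths, with which 73.0% to 76.1% of them came to whole reads (tolerance 0.1). Of the 24 receptor values under 60 reads, 23 lay within 0.15 of a whole number. Reads implied by RPKM cover counting error only and are not shown to be independent molecules.

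All 8 receptors are named. Of the other receptor, ligand, signalling and ageing lists, genes were named for an adjusted p under 0.05, the 3 smallest unadjusted p and the 3 highest levels. Of the marker lists, those with an adjusted p under 0.05 (up to 4 per list by fold) and the most abundant gene were named. For each receptor the 3 genes with the highest Pearson's r were named. C1qc, Cd5l, Csf3r, Ly6g, Ly6c2, Adgre1, Vcan, Mertk, Clec9a, Ms4a1, Cxcr6, Ccr6, Ccr10, Xcr1, Cxcl12 and Cx3cl1 were named after their values were seen. Ccr4, Ccr8, Ccr1l1, Cxcl5, Epx, Prg2 and Il5ra, which are on the lists, were not analysed here. The alternatives were a pseudocount of 0.1, no filter, quantile normalization, a stricter filter (mean of 5 RPKM or more), centring on the median, no trend, a test of each gene on its own variance, RPM in place of RPKM for levels, and leaving out each library. Sequences and positions were read from the mm9 genome and GENCODE vM1, and 1 sequence and 1 gene are not reported here. Python 3.11.15, Biopython 1.88, pandas 2.3.3, numpy 2.4.6 and matplotlib 3.10.9 were used.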

Additional observations from a re-analysis of the deposited data

Results flagged for a closer look

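Of the 8 receptors and the ratio of Cxcr2 to Cxcr4, the spread within PBS neutrophils held 1 library that stood apart by Dixon's ratio. For Cxcr4 the gap between PBS replicate 8 (224 RPKM) and the other 3 PBS libraries (172 to 175) made up 0.946 of the range, above Dixon's critical value for 4 libraries. Chance flags about 1 in 20 groups, and 9 were looked at. Without PBS replicate 8 the log2 fold change of Cxcr4 was -0.063 in place of -0.16. PBS replicate 8 was also the library with the lowest Cxcr2 (149.5 RPKM) and the deepest one (3960000 reads), and the part of depth in its values was not tested. Cxcr1 came close to the critical value (0.827), through PBS replicate 6.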

How the results depend on the processing

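Of 109 values of the 8 receptors under the alternatives, 98 kept their direction and their side of the threshold, 8 lost the call and 3 changed sign. The log2 fold change of Cxcr4 became 0.009 with centring, and that of Ccr1 became -0.01 without PBS replicate 7 and -0.30 without MC-21 replicate 2 (leave-one-out range -0.30 to 0.64). The cause was not tested. Ccr2 kept its direction but not its call with a pseudocount of 0.1 (-3.33, adjusted p = 0.0595), without the filter (-1.51, 0.0688), when each gene was tested on its own variance (-1.51, 0.115), and on leaving out any of 5 libraries (range -1.63 to -1.39 over the 7 libraries, adjusted p 0.0434 to 0.0931). It was called with quantile normalization, centring and no trend (adjusted p 0.0222 to 0.0368). The count of receptors called, 1, was 0 in those cases and at a mean of at least 5 RPKM, which Ccr2, Ccr7 and Cx3cr1 do not reach, and 0 to 1 with 1 library left out. Among the other receptors it was 1 (Ackr2) in place of 0 with centring and 0 to 1 with 1 library left out. Of the monocyte and macrophage markers 5 were called, 1 without the filter, 0 on own variances and 2 to 5 with 1 library left out. Over all genes 60 were called, 6 without the filter, 4 on own variances, 9 when PBS replicate 8 was left out and 102 when PBS replicate 6 was. Centring moved the median of all genes from -0.145 to 0.02. By RPM Cxcr2 and Cxcr4 changed places, ranks 2 and 3. The call of Cd177 was lost in 8 of 14 alternatives. No paired analysis was possible because the groups share no replicate numbers. Depth limits Ccr2, Ccr7 and Cx3cr1 most, at 0 to 8 reads per MC-21 library.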
